A study of Homo sapiens with 6 samples.

Results

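The genes described here are 9 targets of the transcription factor p53: CDKN1A, MDM2, GDF15, BTG2, TP53I3, ZMAT3, FDXR, RRM2B and SESN1. They were taken by gene name from a table of 60675 genes, joined by identifier to the read counts of 6 libraries, and each name matched 1 identifier. The cells were OCI-AML2, a line from human acute myeloid leukaemia, transduced with short hairpin RNA against PNPT1 or against SUPV3L1. PNPT1 is the gene of the mitochondrial exoribonuclease PNPase, and SUPV3L1 that of its partner helicase SUV3. RNA bound by J2, an antibody against double-stranded RNA, was sequenced in 3 libraries of each knockdown, which the series calls biological replicates. Whether the libraries of a knockdown shared a hairpin is not known. No control cells and no RNA from before the precipitation were analysed here, so every value is a level of precipitated RNA, and every difference is SUPV3L1 knockdown minus PNPT1 knockdown. A change in a gene's expression and a change in how much of its RNA J2 bound cannot be told apart in these libraries, nor can fewer cells of a kind and less RNA per cell.

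p53 is activated by DNA damage and other stresses, binds a response element of paired decamers in or near its target genes and raises their transcription. Its protein is kept low by MDM2, a ubiquitin ligase that is itself a p53 target, which closes a feedback loop. The targets arrest the cell cycle (CDKN1A, BTG2), regulate RNA (ZMAT3), signal outside the cell (GDF15), change redox and iron-sulphur metabolism (TP53I3, FDXR), supply nucleotides for DNA repair (RRM2B) and restrain growth signalling under stress (SESN1). In myeloid leukaemia p53 is known mainly as a barrier to proliferation and a mediator of the response to chemotherapy. Several of these genes also answer to other signals, GDF15 to the stress factor ATF4 and BTG2 to growth stimuli among them.

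The libraries held 5852090 to 11361371 counts assigned to genes, with the fewest in PNPT1 knockdown replicate 3, where 16620 genes had a count against 20765 to 22393 in the others. PNPT1 RNA was lower in each PNPT1 knockdown library (7.66 to 18.9 CPM) than in each SUPV3L1 knockdown library (21.4 to 36.3 CPM). SUPV3L1 RNA overlapped between the groups, at 11.5 to 25.8 CPM in PNPT1 knockdown and 9.42 to 12.3 CPM in SUPV3L1 knockdown. CPM are counts scaled to a common library size by the TMM method, without a correction for gene length. Neither gene passed edgeR's test (adjusted p = 0.898 for each). Of 10 marker genes of acute myeloid leukaemia cells, CD34 alone had 0 counts in all 6 libraries, as did all 4 erythroid markers looked at. The 6 lymphoid markers summed to at most 6.70 CPM in a library. The 5 epithelial and stromal markers summed to 21.2 to 77.9 CPM in PNPT1 knockdown and 30.2 to 104 CPM in SUPV3L1 knockdown. Nearly all of this was PECAM1, and KRT18, EPCAM and COL1A2 had 0 counts in all 6 libraries. Summed CPM of 12 mature myeloid markers ran from 235 to 311 in PNPT1 knockdown and from 494 to 3631 in SUPV3L1 knockdown. Of the 494 CPM, in SUPV3L1 knockdown replicate 2, LYZ alone gave 344. In that library S100A8 (21.1 CPM) lay below its PNPT1 knockdown values, and S100A9 (55.7 CPM) among them. Taken singly, 4 of the 10 markers tested had groups that did not overlap, all higher in SUPV3L1 knockdown (4.62% of all tested genes). The part of these markers in the results below was not tested. Over the p53 targets the libraries did not sort by knockdown. Of the 15 pairs of libraries, the closest over the 8 targets tested was PNPT1 knockdown replicate 2 with SUPV3L1 knockdown replicate 2, at a root mean square difference of 0.25 in log2 CPM, and 6 of the 8 targets lay within 0.25 of each other there. The same pair was the closest over all genes with a mean of at least 10 CPM, at 0.38. The farthest pair over the targets was PNPT1 knockdown replicate 3 with SUPV3L1 knockdown replicate 1, at 1.45.

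In CPM and by the adjusted tests, none of the 9 targets separated the 2 knockdowns; in FPKM the groups of SESN1 did not overlap. Each was present in all 6 libraries, 8 passed the filter on low counts, and GDF15 did not. By the quasi-likelihood test of edgeR, with Benjamini-Hochberg adjustment over 13275 genes, 0 of the 8 were called, where 0% of all genes were, and 0 had an unadjusted p under 0.05, where 4.09% of all genes did. DESeq2 called 0 of the 9, and 0 at an unadjusted p under 0.05, against 0.121% and 3.31% of the genes it tested. In CPM the groups overlapped for all 9, while 8.56% of tested genes had groups that did not overlap (4.62% higher and 3.94% lower in SUPV3L1 knockdown). No target was called without the filter, where 0.667% of genes were, or without SUPV3L1 knockdown replicate 2, where 0.00729% were. The fitted log2 fold change lay above 0 for 7 of the 8 and below 0 for SESN1, with a median of 0.26 against 0.01 over all tested genes, of which 50.7% lay above 0. All 8 95% intervals included 0.

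**Figure D1:**
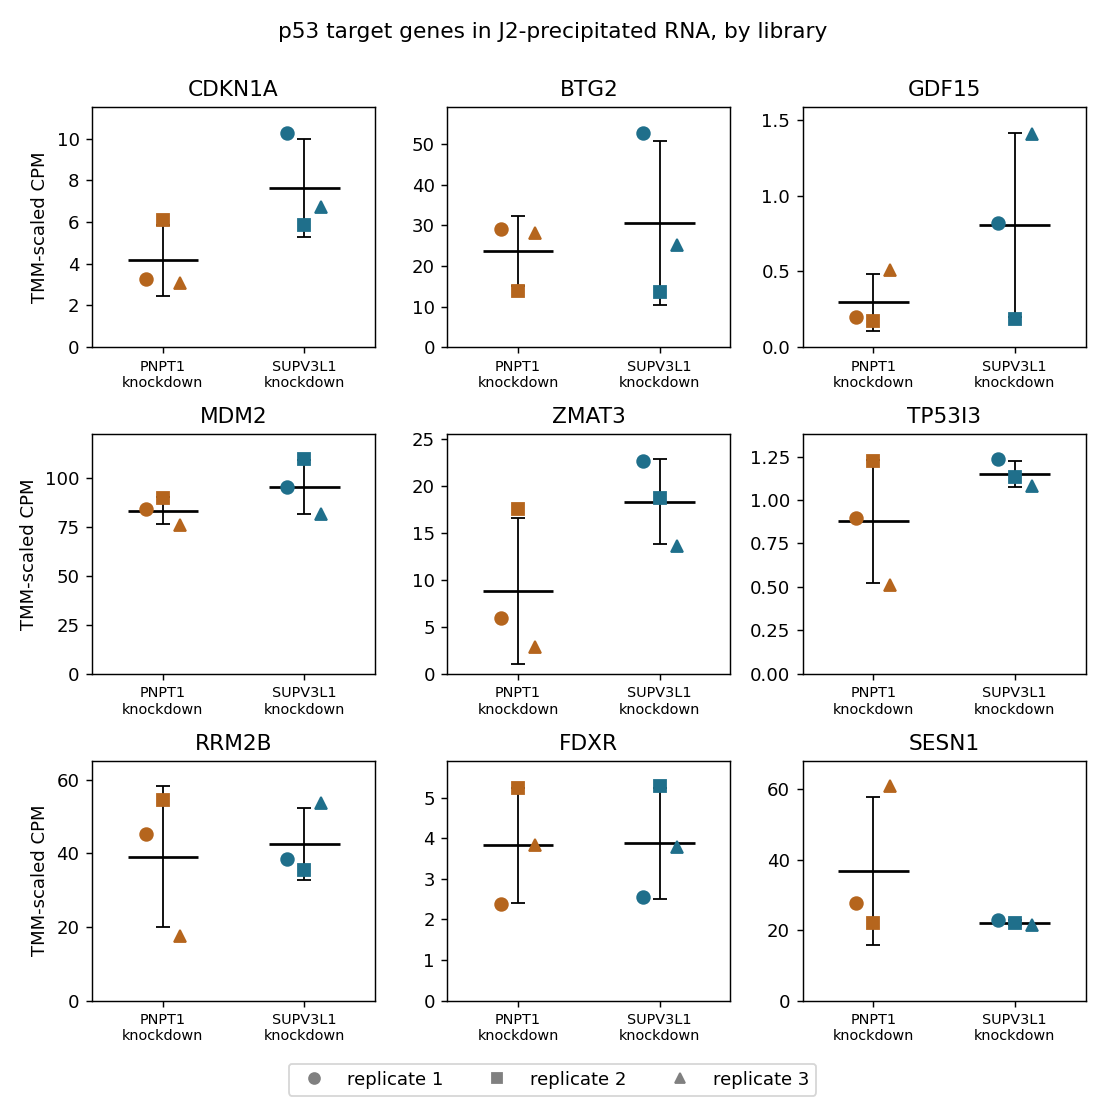
TMM-scaled CPM (vertical axes, each from 0) of 9 p53 targets in 3 PNPT1 knockdown (brown) and 3 SUPV3L1 knockdown (blue) libraries. Marker shape gives the replicate, horizontal bars the group mean and error bars the SD; the groups overlap in every panel.

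Among the genes of cell cycle arrest, CDKN1A encodes p21, the inhibitor of cyclin-dependent kinases through which p53 stops the cell cycle. It lies on chromosome 6 at 36676460 to 36687339 of GRCh38 (plus strand, ENSG00000124762). CDKN1A had 33, 70 and 12 counts in PNPT1 knockdown replicates 1, 2 and 3, which is 3.28, 6.11 and 3.07 CPM. It had 125, 62 and 62 counts in the SUPV3L1 knockdown libraries, which is 10.3, 5.85 and 6.71 CPM. The overlap rests on PNPT1 knockdown replicate 2, which lay just above SUPV3L1 knockdown replicate 2 and below the other SUPV3L1 knockdown libraries. The means were 4.16 ± 1.70 and 7.61 ± 2.35 CPM (SD, n = 3 each), and the log2 fold change was 0.85 ± 0.49 (SE, 95% interval -0.24 to 1.94; edgeR adjusted p = 0.898). DINOL, a noncoding gene on the opposite strand, shares 4.79% of the exonic bases of CDKN1A. Whether the counting used strand is not known, so reads of such antisense genes cannot be told apart from those of the targets.

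BTG2, an antiproliferative gene that also couples to mRNA deadenylation, is on chromosome 1 at 203305491 to 203309602 (plus strand, ENSG00000159388). It measured 28.96, 13.7 and 28.1 CPM after PNPT1 knockdown and 52.8, 13.5 and 25.1 CPM after SUPV3L1 knockdown. The spread within SUPV3L1 knockdown was 3.91-fold from the lowest to the highest library and exceeded the difference between the group means, 23.6 ± 8.58 and 30.5 ± 20.2 CPM (SD, n = 3). SUPV3L1 knockdown replicate 1 stood alone at the top, and replicate 2 of both knockdowns at the bottom. The log2 fold change was 0.37 ± 0.50 (SE; edgeR adjusted p = 0.918), and it was -0.30 without SUPV3L1 knockdown replicate 1. That library also had the highest summed CPM of mature myeloid markers (3631), whose part in the result was not tested.

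MDM2, the feedback inhibitor of p53, had the most counts of the 9 genes, 5254 over the 6 libraries, and the smallest spread in CPM. The gene spans chromosome 12 at 68808176 to 68850686 (plus strand, ENSG00000135679). The stretch before one of its starts holds a p53 response element whose decamers adjoin, and it is shown for that reason. It is chr12:68808767-68809016 on the plus strand of GRCh38.p14, from RefSeq, and the capitals mark the decamers, which begin 94 bases before the annotated start:
MDM2: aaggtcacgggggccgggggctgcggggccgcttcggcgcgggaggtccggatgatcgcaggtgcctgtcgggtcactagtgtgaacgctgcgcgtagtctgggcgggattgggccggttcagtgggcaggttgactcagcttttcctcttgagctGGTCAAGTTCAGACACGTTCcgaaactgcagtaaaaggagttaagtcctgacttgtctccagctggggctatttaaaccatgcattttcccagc
MDM2 measured 84.4, 90.1 and 76.0 CPM after PNPT1 knockdown and 95.5, 109.6 and 81.6 CPM after SUPV3L1 knockdown, so the groups overlapped. Its highest CPM was 1.44 times its lowest, where tested genes of a like mean (within 2-fold) had a median ratio of 2.15. Without PNPT1 knockdown replicate 3 the ratio was 1.29 for SESN1 and 1.34 for MDM2. In FPKM SESN1 ran from 2.75 to 4.50, and MDM2 more widely, from 2.57 in PNPT1 knockdown replicate 3 to 6.91. The log2 fold change was 0.19 ± 0.28 (SE; edgeR adjusted p = 0.925). Its 95% interval, -0.44 to 0.83, was the narrowest of the 8 and the one that lay within 1 log2 unit of 0 on both sides. With each library left out the value stayed between 0.08 and 0.30. Of its exonic bases, 5.91% are shared with the antisense gene AC025423.4 and 3.30% with a processed pseudogene, AC025423.2.

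ZMAT3, a zinc finger protein that binds RNA and acts on splicing and mRNA stability downstream of p53, had the largest fitted difference of the 8 targets that edgeR tested. Its locus is chromosome 3 at 179017223 to 179072279 (minus strand, ENSG00000172667). ZMAT3 had 60, 201 and 11 counts in the PNPT1 knockdown libraries (5.97, 17.6 and 2.81 CPM) and 275, 198 and 126 in the SUPV3L1 knockdown libraries (22.6, 18.7 and 13.6 CPM). PNPT1 knockdown replicates 1 and 3 lay below all 3 SUPV3L1 knockdown libraries, and PNPT1 knockdown replicate 2 lay among them. The means were 8.78 ± 7.76 and 18.3 ± 4.49 CPM (SD, n = 3), a log2 fold change of 1.03 ± 0.57 (SE, 95% interval -0.24 to 2.29; edgeR adjusted p = 0.898). Leaving out replicate 3 of PNPT1 knockdown gave 0.63 and leaving out replicate 2 gave 2.00, so its size depends on which PNPT1 knockdown library is kept. Without replicate 2, ZMAT3 had an adjusted p of 0.243 by the same edgeR test, the smallest of any target under the alternatives run. Across the 6 libraries its highest level was 8.03 times its lowest, against a median ratio of 2.55 for tested genes of a like mean.

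GDF15, a secreted cytokine of the TGF-β family that rises in mitochondrial and integrated stress, was hardly counted. The gene spans chromosome 19 at 18374731 to 18389176 (plus strand, ENSG00000130513). It had 2 counts in each PNPT1 knockdown library and 10, 2 and 13 in the SUPV3L1 knockdown libraries, so that SUPV3L1 knockdown replicates 1 and 3 stood above the other 4 libraries in counts. In CPM these are 0.199, 0.175 and 0.512 against 0.822, 0.189 and 1.41. Pooled by group, the rate was 3.31 times as high in SUPV3L1 knockdown (exact Poisson 95% interval 1.32 to 9.86), an interval that covers counting error only and not the spread between libraries. DESeq2, which tested this gene, gave a log2 fold change of 1.58 ± 1.21 (SE; adjusted p = 0.939). At 31 counts in all, the depth does not allow a firmer statement.

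RRM2B, the p53-inducible small subunit of ribonucleotide reductase, which supplies deoxynucleotides for repair and for mitochondrial DNA, lies on chromosome 8 (ENSG00000048392). It measured 45.3, 54.4 and 17.7 CPM after PNPT1 knockdown and 38.6, 35.4 and 53.6 CPM after SUPV3L1 knockdown. Both the highest and the lowest library belonged to PNPT1 knockdown. The log2 fold change was 0.11 ± 0.41 (SE; edgeR adjusted p = 0.964). It was -0.24 without PNPT1 knockdown replicate 3 and -0.09 without SUPV3L1 knockdown replicate 3.

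Among the genes of redox metabolism, TP53I3, a quinone oxidoreductase also known as PIG3, was nearly as rare. It lies on chromosome 2 at 24077433 to 24085861 (minus strand, ENSG00000115129) and had 62 counts in all. Its levels were 0.896, 1.22 and 0.512 CPM after PNPT1 knockdown and 1.23, 1.13 and 1.08 CPM after SUPV3L1 knockdown. SUPV3L1 knockdown libraries were close together, and PNPT1 knockdown replicate 3, with 2 counts, was the low one. The log2 fold change was 0.32 ± 0.63 (SE; edgeR adjusted p = 0.940), and 0.11 without that library. FDXR, ferredoxin reductase, passes electrons to mitochondrial ferredoxins for steroid and iron-sulphur cluster synthesis. Its locus is chromosome 17 at 74862497 to 74873031 (minus strand, ENSG00000161513). FDXR measured 2.39, 5.24 and 3.84 CPM after PNPT1 knockdown and 2.55, 5.28 and 3.79 CPM after SUPV3L1 knockdown, so the 2 sets of values nearly coincided. The log2 fold change was 0.02 ± 0.55 (SE; edgeR adjusted p = 0.996), and it lay on either side of 0 with 1 library left out (-0.28 to 0.33). Its 95% interval, -1.19 to 1.23, still allows a 2-fold difference either way.

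SESN1, a sestrin that restrains mTORC1 signalling, was the one target with a fitted value below 0. It lies on chromosome 6 at 108986437 to 109094819 (minus strand, ENSG00000080546). Of the stretches before its 3 RefSeq starts, the one furthest into the gene is shown because it holds a decamer that matches the p53 consensus without a mismatch. It is chr6:109008989-109009238 on the minus strand of GRCh38.p14, with that decamer in capitals, starting 49 bases before the annotated start:
SESN1: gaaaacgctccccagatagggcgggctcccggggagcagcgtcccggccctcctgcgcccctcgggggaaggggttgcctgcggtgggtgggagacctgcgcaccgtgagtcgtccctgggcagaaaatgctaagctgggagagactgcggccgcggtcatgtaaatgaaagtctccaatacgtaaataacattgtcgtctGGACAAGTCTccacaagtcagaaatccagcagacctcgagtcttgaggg
SESN1 had 279, 252 and 238 counts in PNPT1 knockdown, and 279, 234 and 199 in SUPV3L1 knockdown. In CPM these are 27.8, 22.01 and 60.9 against 22.9, 22.1 and 21.5. PNPT1 knockdown replicate 3 was far above the other 5 libraries, which spanned 1.29-fold. The log2 fold change was -0.72 ± 0.40 (SE, 95% interval -1.61 to 0.17; edgeR adjusted p = 0.898), and -0.17 without that library. That library, with the fewest counts, has a TMM factor of 0.669, which raises its CPM over counts scaled by library size alone. In the deposited FPKM table, SESN1 stood at 4.36, 3.25 and 4.50 after PNPT1 knockdown and at 3.18, 3.01 and 2.75 after SUPV3L1 knockdown. These groups did not overlap, as for 6.72% of tested genes in FPKM (3.5% in this direction), and SESN1 was the 1 target of which this holds. The antisense gene AL390208.1 shares 7.09% of the exonic bases of SESN1, and its reads cannot be told apart without the strand setting.

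**Figure D2:**
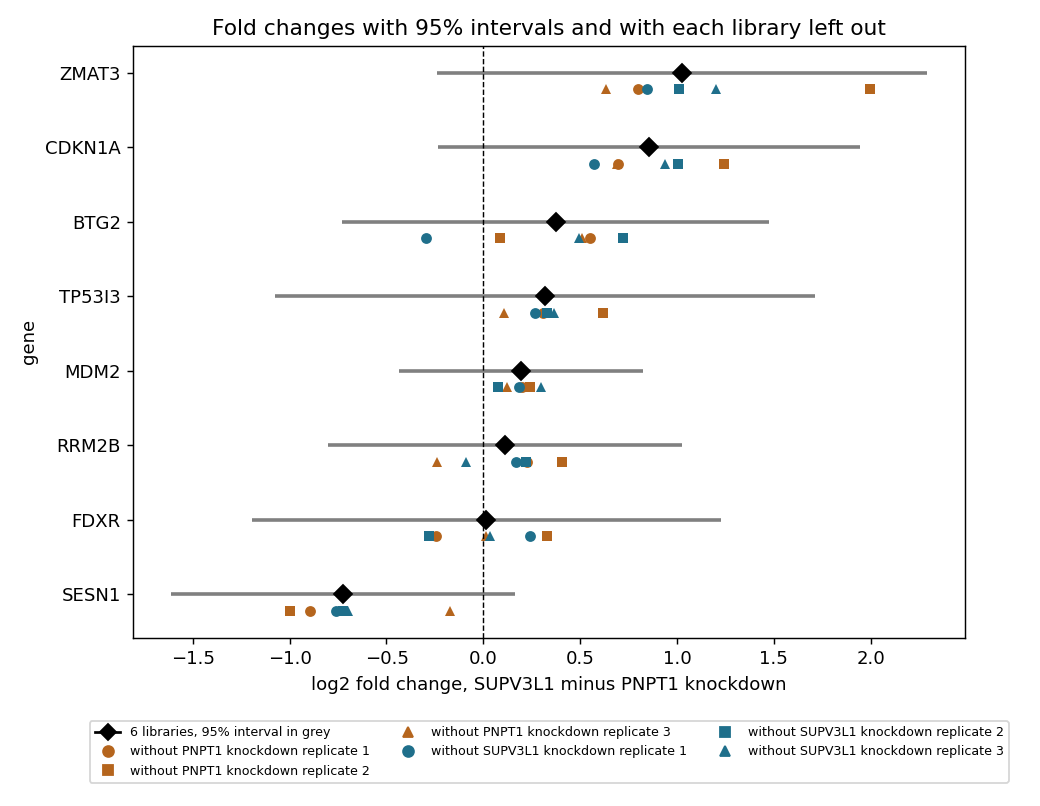
Log2 fold changes of the 8 targets tested (horizontal axis), with black diamonds for all 6 libraries, grey bars for 95% intervals, and coloured markers below each bar for fits with 1 library left out. All 8 intervals cross 0, and the markers of BTG2, RRM2B and FDXR lie on both sides of it.

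The 8 targets did not share a pattern over the libraries. After each gene was centred on its own mean, PNPT1 knockdown replicate 3 was the lowest library for 5 of the 8 targets when ranked by CPM, and for 36.4% of all tested genes. It was the highest for SESN1, and for 30.6% of all tested genes. SUPV3L1 knockdown replicate 1 was the highest library for 4 of the 8 (11.8% of all tested genes). By the root mean square difference of centred log2 CPM, the most alike targets were MDM2 and TP53I3, at 0.26, and the least alike ZMAT3 and SESN1, at 1.53. CDKN1A lay at 0.36 from TP53I3, 0.51 from MDM2 and 0.80 from BTG2, its fellow arrest gene. Among 8026 other genes with a mean of at least 10 CPM, the genes most like CDKN1A over the 6 libraries were TBRG4, TBXAS1 and DESI1, at 0.16, 0.19 and 0.19, where the median gene lay at 0.71. TBRG4 encodes a mitochondrial protein and TBXAS1 thromboxane synthase. These distances describe 6 libraries and carry no test. A small count was added before taking log2, which narrows the spread of rare genes such as TP53I3, with 62 counts in all. A small distance can thus come from profiles that are both nearly flat.

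**Figure D3:**
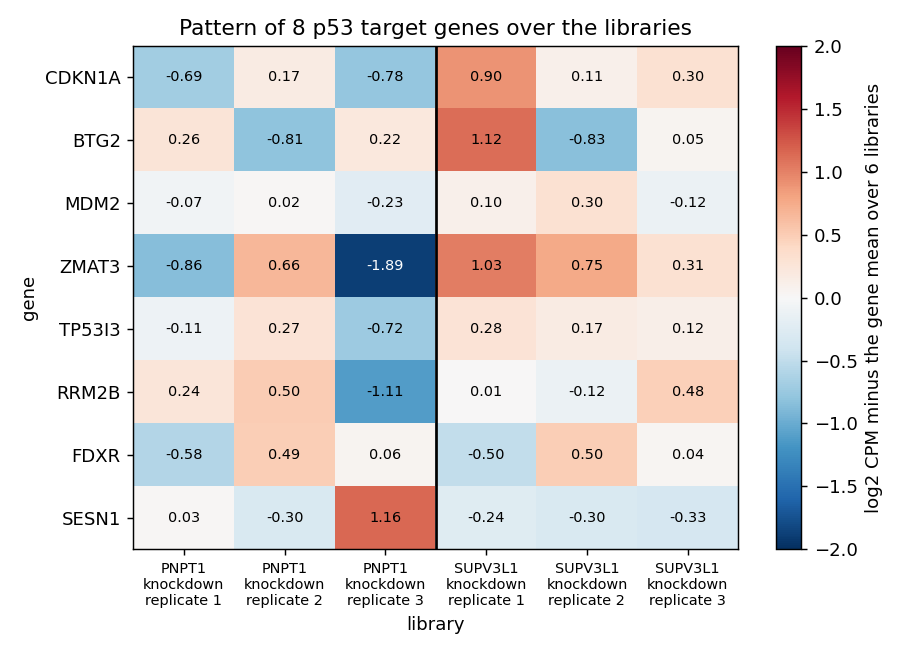
Log2 CPM of 8 p53 targets (rows) in each library (columns), minus the gene's mean over the 6 libraries, with the value in each cell; the black line parts the knockdowns. ZMAT3 (-1.89) and RRM2B (-1.11) are low and SESN1 (1.16) high in PNPT1 knockdown replicate 3, while FDXR repeats nearly the same values in both knockdowns.

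Levels of different genes were compared per gene length, in the FPKM of the deposited table. The order of the means over the 6 libraries was BTG2 (7.26 FPKM), RRM2B (5.56), MDM2 (5.46), SESN1 (3.51), CDKN1A (1.40), ZMAT3 (1.10), FDXR (0.780), TP53I3 (0.395) and GDF15 (0.185). For 7 of the 8 neighbouring pairs in this order the ranges overlapped. The exception was SESN1, whose lowest library, 2.75 FPKM, lay above the highest of CDKN1A, 2.51 FPKM. The first 4 genes lay above the median of all tested genes, 2.57 FPKM, and the p21 gene below it. In FPKM, too, PNPT1 knockdown replicate 3 was low for several targets: ZMAT3 was at 0.136 there, against 0.569 and 1.55 in the other PNPT1 knockdown libraries, and RRM2B at 1.41, against 7.05 and 7.82.

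**Figure D4:**
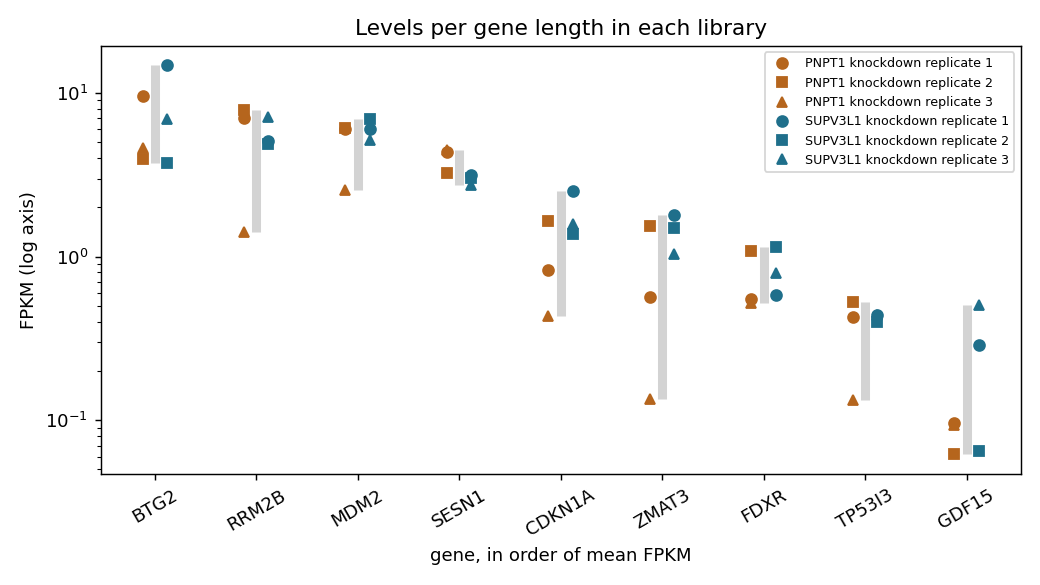
FPKM on a log axis of each target in the 6 libraries, in order of the mean, with grey bars from the lowest to the highest library. BTG2, RRM2B and MDM2 overlap at the top, and SESN1 and CDKN1A are the neighbouring pair whose ranges do not meet.

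Sequence features that bear on double-stranded RNA and on p53 were described next. J2 recognises long double helices, and a transcript can form one by itself where it holds a stretch and its reverse complement. The longest such perfect inverted repeat in the longest annotated transcript was 28 bases for MDM2, with arms starting at bases 5219 and 5669 of the 12633-base transcript, beyond its coding sequence (bases 303 to 1793). For the other 8 genes it was 9 to 14 bases, close to the median of 12 over 13173 tested genes with a transcript in GENCODE 29. An arm of at least 20 bases was found in 6.75% of those genes. The transcript of MDM2 is long, and among 391 tested genes with a transcript within 1.25-fold of that length, 19.2% had an arm at least as long as that of MDM2, with a median of 15. By the same measure the 14-base arms of TP53I3 and FDXR were matched or exceeded in 8.36% and 11.3% of tested genes of like length, smaller shares than for MDM2. Helices with mismatches were not searched for, and whether these arms have a part in J2 binding was not tested. Gene counts do not show which transcript of MDM2 the libraries held.

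RefSeq promoter windows of 300 bases were given for 8 of the 9 genes, 15 windows in all. They were searched for the p53 response element, written as paired copies of the p53 decamer consensus up to 13 bases apart with at most 1 mismatch in each. The consensus reads the same on both strands. An element was found in 3 of the 15 windows, against 5.25% of all 35116 windows. They were 2 overlapping windows of MDM2 and 1 window of SESN1. The MDM2 windows hold the same element, with no bases between its decamers, and the SESN1 decamers lie 11 bases apart. The search weighed all mismatches alike. Those of SESN1 fall on the C of the consensus in the first decamer and on its G in the second, where no other base is allowed. Those of MDM2 fall elsewhere. A decamer without a mismatch was found in 1 window each of FDXR and SESN1, against 6.63% of all windows. CDKN1A, GDF15, BTG2, TP53I3 and ZMAT3 had no element in these windows, which says nothing of p53 binding outside them.

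The other genes of the pathway were counted to place the 9. Of 32 further p53 targets, all tested, 16 had a log2 fold change above 0 and 16 below, with a median of 0.00, and 0 passed edgeR's test over all genes. DESeq2 called 0 as well. At an unadjusted p under 0.05 by edgeR there were 2, DDB2 and BBC3, both lower in SUPV3L1 knockdown, where 2.39% of all tested genes were. DDB2, a sensor of ultraviolet DNA damage, measured 50.9, 40.4 and 59.4 CPM after PNPT1 knockdown and 30.0, 28.95 and 26.5 CPM after SUPV3L1 knockdown, without overlap. Its log2 fold change of -0.81 ± 0.30 (SE; edgeR adjusted p = 0.898) stayed between -0.96 and -0.69 with each library left out. BBC3, which encodes the pro-apoptotic protein PUMA, was at 9.75, 7.07 and 24.8 CPM against 4.11, 4.81 and 7.90 CPM. Its log2 fold change was -1.29 ± 0.54 (SE; edgeR adjusted p = 0.898), and -0.60 without PNPT1 knockdown replicate 3. GADD45A, a growth arrest and DNA damage gene, was at 5.97, 6.03 and 16.9 CPM against 5.76, 4.43 and 2.92 CPM, a log2 fold change of -1.11 ± 0.55 (SE), and -0.46 without PNPT1 knockdown replicate 3. The groups did not overlap in CPM for 5 of the 32 further targets, named here after their values were seen. TRIM22 and EDA2R were higher in SUPV3L1 knockdown (4.62% of all tested genes), and DDB2, GADD45A and FAS were lower (3.94%).

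Regulators and cofactors of p53 had 17 of 18 genes tested, 6 above 0 and 11 below, a median of -0.07 and 0 genes called by edgeR, with 0 at an unadjusted p under 0.05. RPL5, a ribosomal protein that binds and inhibits MDM2, measured 415, 330 and 1468 CPM after PNPT1 knockdown and 346, 427 and 189 CPM after SUPV3L1 knockdown. Ribosomal protein genes have many processed pseudogenes, and how their reads were counted was not tested. SIRT1, a deacetylase of p53, was at 26.1, 13.2 and 44.8 CPM against 15.8, 13.9 and 20.1 CPM, and CDKN2A, the gene of p16 and of the MDM2 inhibitor p14ARF, at 28.2, 29.7 and 42.0 CPM against 22.1, 32.0 and 18.6 CPM. In each of these genes PNPT1 knockdown replicate 3 was the highest library and the groups overlapped. Without that library their log2 fold changes were -0.22, -0.25 and -0.26, against -1.20, -0.74 and -0.45 with all libraries.

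Targets of the DREAM complex, the repressor through which p21 lowers cell cycle genes, lay mostly below 0 without passing the test. Of 20 tested, 15 lay below 0 and 5 above, with a median of -0.43, and 0 passed edgeR's test, with 0 at an unadjusted p under 0.05. CDC20, an activator of the anaphase-promoting complex, measured 33.9, 34.1 and 127 CPM after PNPT1 knockdown and 37.3, 23.7 and 31.0 CPM after SUPV3L1 knockdown. BUB1, a spindle checkpoint kinase, was at 101, 54.7 and 133 CPM against 71.0, 47.2 and 58.7 CPM. CCNB2, cyclin B2, was at 40.0, 28.6 and 101 CPM against 39.9, 20.3 and 31.1 CPM. All 3 were highest in PNPT1 knockdown replicate 3, and without it the median of the list was 0.00. On the deposited FPKM (log2 of FPKM + 0.1) the median of the list was -0.06, where that of all tested genes was 0.17.

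**Figure D5:**
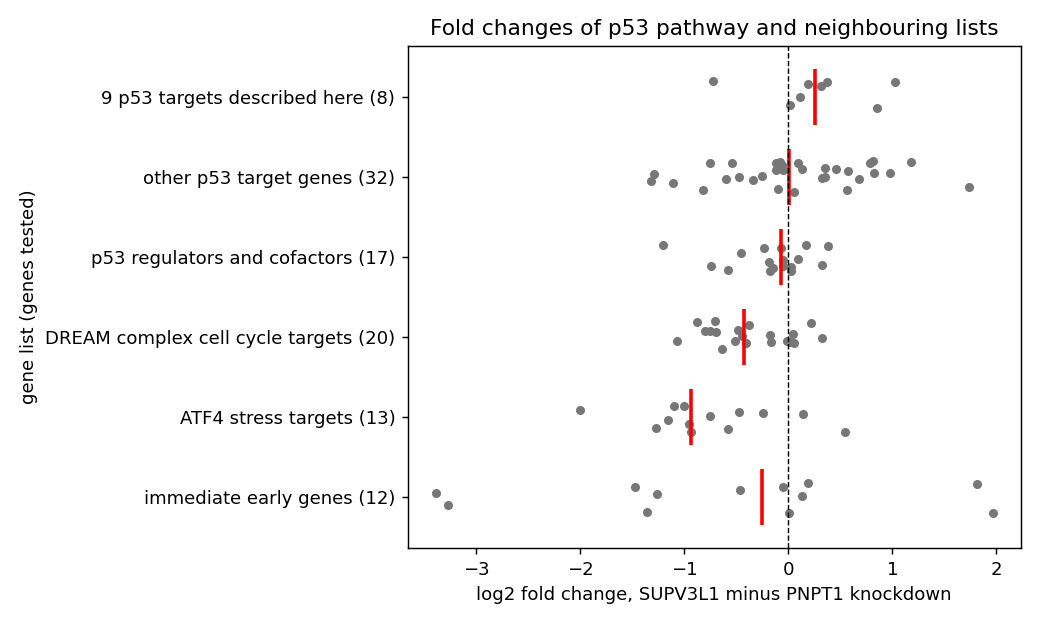
Log2 fold change (horizontal axis) of each tested gene in the 9 p53 targets described here, in further p53 targets, in p53 regulators and in 3 neighbouring lists, with the red bar at the list's median; points are spread vertically to be visible. The medians are 0.26, 0.00, -0.07, -0.43, -0.94 and -0.26 from top to bottom.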

How the data were processed

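The labels describe J2 immunoprecipitation and directional libraries from OCI-AML2 cells, 3 for each knockdown. The deposited count files hold whole-number counts per Ensembl gene, and the deposited FPKM table holds the authors' values scaled to gene length and depth. The build was GRCh38 and the tools named were StringTie 2.1.4, HTSeq, SAMtools 1.14 and HISAT2 2.2.1, per the submitters' processing notes. The sources used here give neither the strand setting nor the annotation release. Alignments that were not unique (65.7% to 80.1% of entries) gave no counts, and HTSeq summary lines were left out.

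Counts were tested with edgeR 4.0.16 (R 4.3.3, quasi-likelihood, TMM, filterByExpr with a minimum count of 10 and a total of 15) over 13275 genes, with Benjamini-Hochberg adjustment and a threshold of 0.05. Standard errors were computed from each fold change with the F statistic, intervals from the t distribution at the fit's degrees of freedom. DESeq2 1.42.0 and limma 3.58.1 on log2(FPKM + 0.1) and log2(FPKM + 1) were alternatives. The test was also run on simulated data, and no result given here rests on that run. How well the test finds differences as small as those fitted for the targets was not tested. FPKM columns were matched by title. Replicates are numbered in accession order. Whether the libraries of a knockdown used the same hairpin is not known. The p-values set a difference against the spread between these libraries and cover no other source of variation. In the edgeR test that spread is estimated for each gene with help from the other genes (10.4 total degrees of freedom against 4 residual).

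The members and lists were chosen with earlier results of these data known. The genes named were the 9 members, the 3 genes with the smallest p of each further list, and the 3 genes nearest to CDKN1A. Positions come from GENCODE 29 on GRCh38.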

Additional observations from a re-analysis of the deposited data

How the results depend on the processing

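No target was called in any of the 14 alternatives, and the smallest adjusted p was 0.243. At an unadjusted p under 0.05 by edgeR there were 3 of 8 targets without PNPT1 knockdown replicate 2 (CDKN1A, ZMAT3 and SESN1). Of all 13702 genes tested there, 1017 were higher and 1081 lower in SUPV3L1 knockdown at that p. Without the filter on low counts there was 1 target (ZMAT3), where 798 of all 28015 genes were higher and 754 lower. CDKN1A, MDM2, TP53I3, ZMAT3 and SESN1 kept the sign of their log2 fold change in every alternative that gave a value. BTG2, FDXR and RRM2B did not. GDF15 had no value in the main fit and 1.58 by DESeq2. With 1 library left out BTG2 ranged from -0.30 to 0.72, FDXR from -0.28 to 0.33 and RRM2B from -0.24 to 0.41. FDXR was at -0.000569 with DESeq2 size factors. The median over the targets was 0.12 to 0.37 with 1 library left out and 0.24 to 0.37 otherwise. The last value, on log2(FPKM + 0.1), stood beside a median of 0.17 over all tested genes, which was 0.01 in the main fit. The cause of these shifts was not tested. Over all genes the edgeR test called 187 without the filter and DESeq2 called 19, against 0. The strict filter (50 counts in every library of a group) left 6 of the targets. With 1 library left out PPP1R15A ranged from -2.54 to 0.0112, NR4A1 from -3.97 to 0.32 and DUSP1 from -3.86 to 1.26, each highest without PNPT1 knockdown replicate 3, and these 3 genes were called without the filter. No paired analysis was possible because the replicate numbers were given in accession order. Depth limits GDF15 and TP53I3 most, with 31 and 62 counts.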

Other observations

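Lists of genes that share members or signals with the p53 targets were described as well. Among 13 ATF4 stress targets, which include SESN2, a p53 target too, 11 had a log2 fold change below 0 and the median was -0.94. By edgeR's test over all genes 0 passed (0 by DESeq2), and 3 had an unadjusted p under 0.05, all lower in SUPV3L1 knockdown (2.39% of all tested genes). VLDLR, a lipoprotein receptor, measured 51.9, 75.8 and 74.0 CPM after PNPT1 knockdown and 30.7, 42.1 and 28.2 CPM after SUPV3L1 knockdown. PHGDH, the first enzyme of serine synthesis, measured 40.1, 72.5 and 87.5 CPM against 35.3, 30.7 and 38.1 CPM. Neither overlapped between the groups, as for 3.94% of tested genes in this direction. PPP1R15A, which reverses the phosphorylation of eIF2α, was at 42.7, 13.6 and 290 CPM against 30.8, 13.2 and 41.8 CPM. The median of the list was -0.29 without PNPT1 knockdown replicate 3. GDF15, also a target of ATF4, had more counts in 2 of the 3 SUPV3L1 knockdown libraries.

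Immediate early genes, the class to which BTG2 is often counted, had 12 of 14 genes tested, 7 of them below 0, and a median of -0.26. By edgeR's test over all genes 0 passed, and 2 had an unadjusted p under 0.05, both lower in SUPV3L1 knockdown (2.39% of all tested genes). These were NR4A1 and DUSP1. DESeq2 called 0 of the list, but it gave no p for NR4A1 or DUSP1. NR4A1, a nuclear receptor, measured 0.896, 1.66 and 49.9 CPM after PNPT1 knockdown and 1.81, 0.660 and 2.38 CPM after SUPV3L1 knockdown. DUSP1, a phosphatase of MAP kinases, was at 1.19, 1.40 and 90.6 CPM against 4.36, 1.04 and 4.01 CPM. KLF6, a zinc finger factor, was at 23.1, 7.25 and 75.2 CPM against 15.5, 6.88 and 18.2 CPM. All 3 were highest in PNPT1 knockdown replicate 3, where BTG2 was at 28.1 CPM, next to 28.96 in PNPT1 knockdown replicate 1. The median of the list was 0.81 without that library, -1.48 without SUPV3L1 knockdown replicate 1 and 0.03 without the filter on low counts.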
